A study of Mus musculus with 2 samples.

Results

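The axon guidance ligands and receptors were followed across classes of nuclei in 2 single-nucleus libraries of mouse hippocampus. They were chosen by symbol: semaphorins, plexins, neuropilins, Eph receptors, ephrins, Slits, Robos, netrins, netrin-Gs, the Unc5 receptors, Dcc and Neo1. Of 55357 genes in the count matrices, 72 carried such a symbol, and 69 of these reached 50 UMIs (unique molecular identifiers, each standing for 1 captured RNA molecule) over both libraries. The 69 genes were 19 semaphorins, 11 plexins and neuropilins, 13 Eph receptors, 7 ephrins, 7 Slit and Robo genes and 12 netrins and netrin receptors. Robo4 with 57 UMIs and Sema3b with 71 lay just inside the limit. Efna4 with 47 UMIs, Epha2 with 32 and Sema3g with 17 lay outside it.

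All mice carried loxP-flanked Bcas2 alleles (Bcas2F/F); Bcas2 encodes a component of the spliceosome. The first library came from mice injected with AAV2/9-Syn-cre, an adeno-associated virus in which the synapsin promoter directs Cre to neurons, and its genotype is labelled Bcas2 knockdown. The second came from Bcas2F/F mice injected with an AAV vehicle, and its genotype is labelled WT. They are called the knockdown-labelled and the control library here. The sources used here do not give the age of the mice, the time after injection or the number of mice per library.

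Guidance cues are proteins, secreted or held on a cell surface, that attract or repel the growth cones of axons. Semaphorins are read by plexins, with neuropilins as co-receptors for the secreted class, ephrins by Eph receptors, Slits by Robo receptors, and netrins by Dcc, neogenin (Neo1) and the Unc5 receptors. Netrin-Gs are membrane-anchored relatives that bind the postsynaptic proteins Lrrc4c and Lrrc4. In the adult brain many of these genes stay active in neurons and glia, and Eph receptors, semaphorins and netrins are also known for roles at synapses and in oligodendrocytes.

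Of the knockdown-labelled library's 16693 barcodes (90594923 UMIs), 12339 nuclei with a median of 5793 UMIs passed the filters. Of the control library's 12621 barcodes (41781481 UMIs), 11162 nuclei with a median of 2482 UMIs were kept. The libraries shared 56 barcode sequences, 36 of them among the nuclei kept. Nuclei were clustered with the guidance genes left out of the clustering, and clusters were named from lists of marker genes. Of 30 clusters, 3 stayed unnamed. The makeup of the libraries differed: oligodendrocyte-like nuclei were 16.9% of the knockdown-labelled and 63.1% of the control library, and neurons were the greater part of the first. Each library held nuclei scored male by Y-linked transcripts and nuclei scored female by Xist, so each pooled mice of both sexes. Bcas2 itself stood at 33.6 and 34.3 CPM (a gene's UMIs per 1000000 UMIs of the class) in the knockdown-labelled and control dentate gyrus granule-like nuclei, and at 46.3 and 44.5 CPM in GABAergic-like nuclei. Counts made near the 3' end of a gene need not cover the deleted part, so these levels do not check the deletion.

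Because each group is 1 library, no test of a difference between the groups was possible. Where 2 values stand together, the knockdown-labelled library (the first library) comes before the control. Levels are CPM with exact 95% Poisson intervals, and ratios are log2 of the knockdown-labelled over the control level with exact binomial intervals. Both cover counting error only, not the spread between mice. Levels are given by class in any class with at least 50 nuclei in a library, and they compare classes for 1 gene, not genes with each other, since they are not scaled by length.

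The 69 genes were spread over neurons, glia and vascular cells rather than held by neurons alone. In the knockdown-labelled library 44 had their highest level in a neuronal class and 25 in another class. In the control library, with few pyramidal nuclei and with endothelial-like and newly formed oligodendrocyte-like nuclei to measure, these were 36 and 33. In the knockdown-labelled library the level at the highest class differed from that at the next class beyond counting error for 39 genes. In the control library this held for 45. The difference was judged by the exact binomial interval of the ratio between the classes, which excluded equal levels for these genes. For the others, the highest class named below is only the class with the largest value. Among them were Efna1, Efnb2, Epha1, Ntn4 and Plxnc1 in both libraries. Nrp2, Ntng2, Plxnb2, Sema4d and Unc5b were among them in the knockdown-labelled library, and Epha8 and Ephb6 in the control. Over the 10 classes measured in both libraries, 55 of the 69 genes peaked in the same class in both, including 10 of 13 Eph receptors, 17 of 19 semaphorins and 10 of 11 plexins and neuropilins, but 4 of 7 ephrins. The matching shares of all genes were not counted, so these numbers describe the guidance genes and do not set them apart from others.

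**Figure D1:**
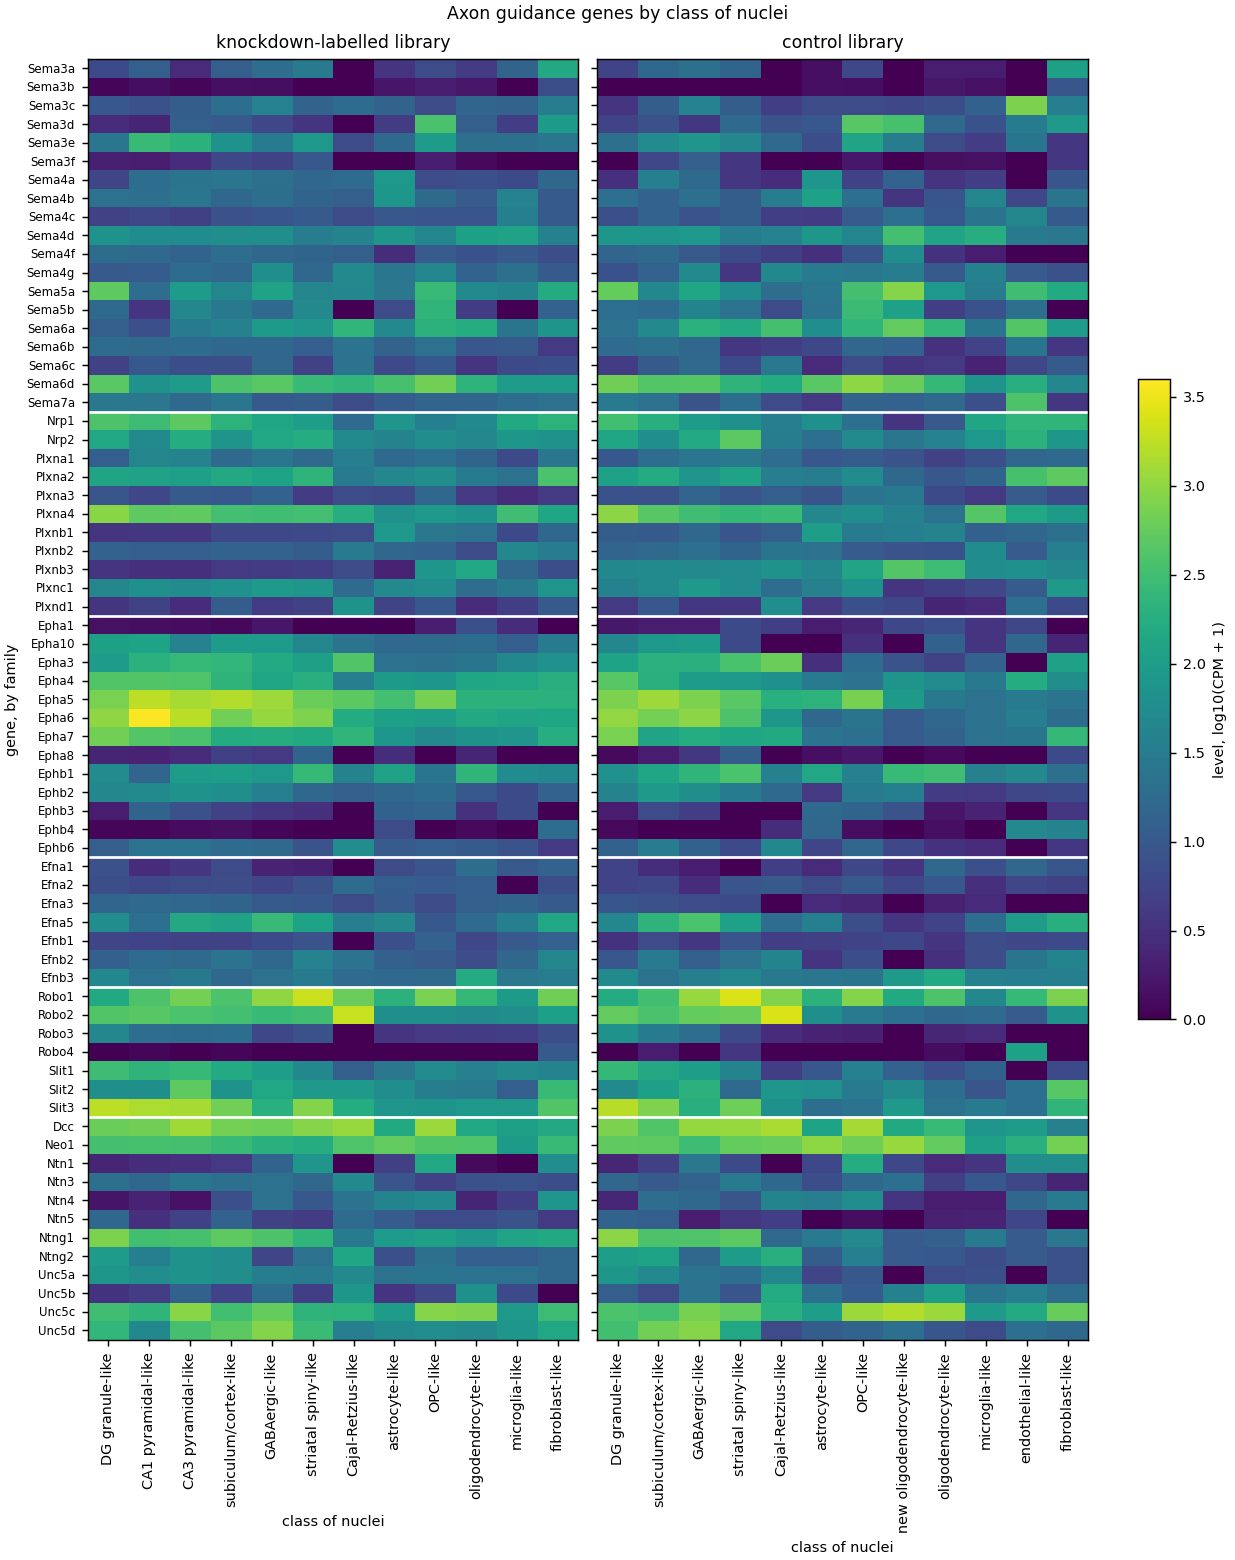
Level of each of the 69 guidance genes (rows, grouped by family, white lines between families) in each class of nuclei (columns) as log10(CPM + 1), with the knockdown-labelled library on the left and the control library on the right. Columns of neurons are brightest for most Eph receptors, Slit3 and Ntng1, and columns of the oligodendrocyte lineage for Plxnb3 and, in the control library, Unc5c.

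Slit3, 1 of the 3 secreted Slit ligands, was highest in dentate granule-like nuclei, at 1758 CPM (1735 to 1780) for the knockdown-labelled library and at 1623 CPM (1585 to 1662) for the control. CA1 pyramidal-like nuclei followed at 1434 CPM and CA3 pyramidal-like nuclei at 1339 CPM, both measured in the knockdown-labelled library only. Slit1 was also highest in granule-like nuclei, at 299 CPM and 248 CPM. Slit2 had a different place: 501 CPM in CA3 pyramidal-like nuclei of the knockdown-labelled library against 60.2 CPM in its granule-like nuclei, and 466 CPM in fibroblast-like nuclei of the control. Nearly all fibroblast Slit2 came from 1 cluster (cluster 27, led by Slc47a1 and Bnc2), at 1463 CPM in the control, while the other fibroblast-like cluster stood at 13.8 CPM. Slit1 and Slit3 were thus highest in principal neurons, with Slit2 in CA3-like nuclei and 1 kind of fibroblast-like nuclei.

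The Slit receptors peaked elsewhere. In Cajal-Retzius-like nuclei Robo2 stood at 1965 CPM (1764 to 2182) and 2454 CPM (2324 to 2590). That was 4.28 times the next class, CA1 pyramidal-like, in the first library and 4.06 times the next, striatal medium spiny-like, in the second. Cajal-Retzius cells are early-born, reelin-secreting neurons of the outermost layer. Robo1 was highest in striatal medium spiny-like nuclei, at 2029 CPM and 2476 CPM, with GABAergic-like nuclei next at 990 CPM and 1099 CPM. The spiny-like nuclei of the knockdown-labelled library were mostly scored female (220 nuclei, against 10 scored male). At the higher clustering resolution, nuclei of this kind fell in a spiny-like cluster (223 and 16 nuclei) and an unnamed cluster. The unnamed cluster held 66 and 53 nuclei, with Drd3 and Isl1 among its leading genes. The mix of the class thus differed between the libraries, also for the Ephb1, Epha8 and Nrp2 levels below. Robo3, a divergent Robo, was highest in granule-like nuclei at 45.4 CPM and 70.6 CPM. Robo4, the endothelial Robo, stood at 112 CPM in endothelial-like nuclei of the control and was at 0 UMIs in its granule-, GABAergic-, astrocyte- and microglia-like nuclei.

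**Figure D2:**
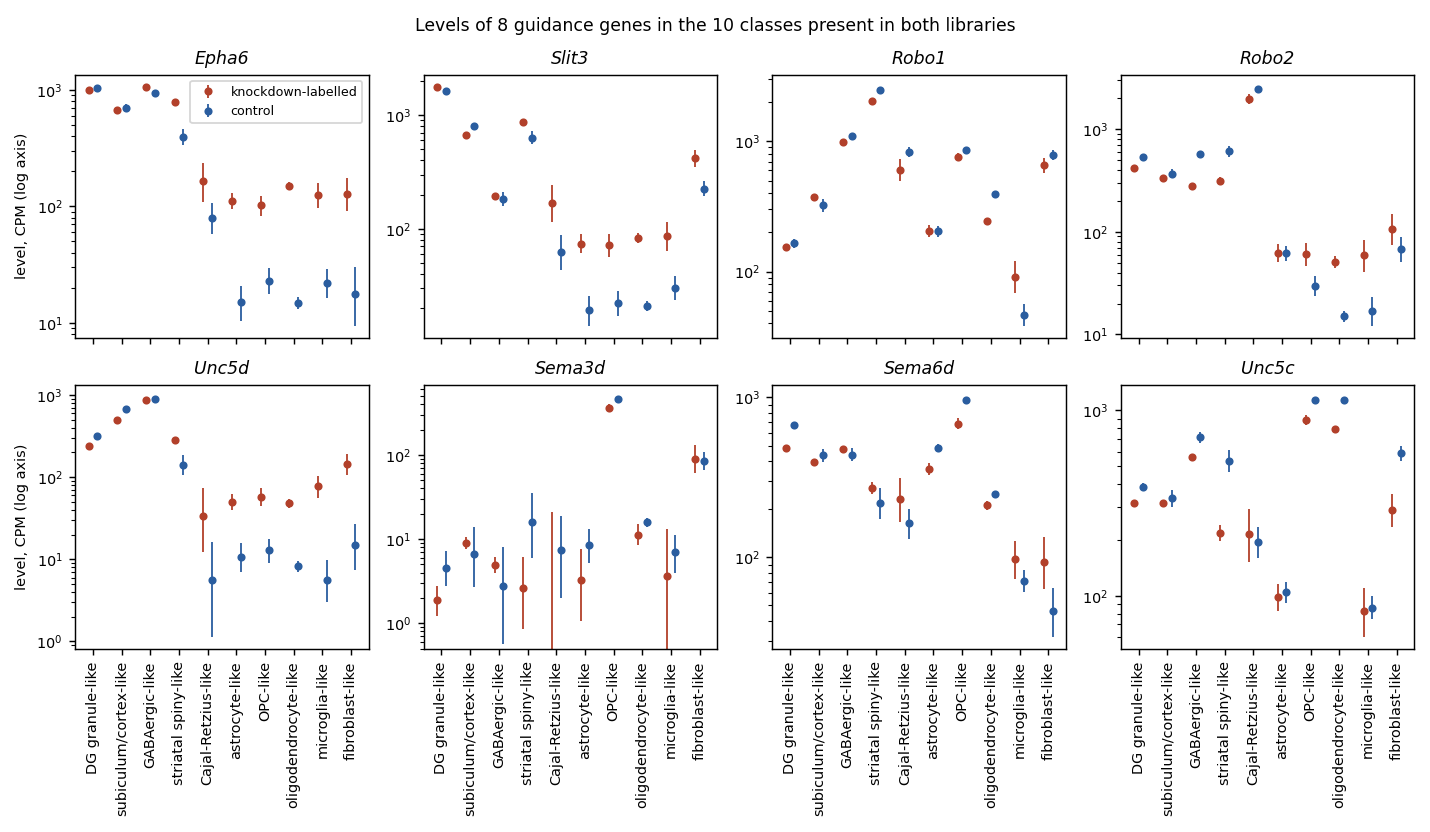
Levels of 8 guidance genes in CPM (log axes) in the 10 classes with at least 50 nuclei in both libraries, with exact 95% Poisson intervals as bars. A level of 0 (Sema3d in the knockdown-labelled Cajal-Retzius-like nuclei) has no point. Robo2 peaks in Cajal-Retzius-like, Robo1 in striatal medium spiny-like, and Sema3d and Sema6d in OPC-like nuclei in each library, whereas Epha6 and Unc5d are higher in the knockdown-labelled library in each glial class.

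Among Eph receptors, receptor tyrosine kinases of the largest such family, the neuronal A-class genes had the sharpest gradients over principal neurons. Epha6 stood at 3829 CPM (3788 to 3870) in CA1 pyramidal-like nuclei of the knockdown-labelled library, 2.29 times its level in CA3 pyramidal-like nuclei (1674 CPM). In granule-like nuclei it was at 995 CPM and 1037 CPM. Although left out of the clustering, Epha6 was the leading gene by fold of the CA1 pyramidal-like cluster, and it was among the 10 leading genes of 3 others. Epha5 was highest in CA1 pyramidal-like nuclei of the first library (1724 CPM) and in subiculum or cortex excitatory-like nuclei of the control (1165 CPM), where CA1-like nuclei were too few to measure. Epha7 was highest in granule-like nuclei, at 685 CPM and 750 CPM, as was Epha4, the Eph receptor that binds ephrins of both classes, at 423 CPM and 467 CPM. For Epha4 the CA1 pyramidal-like level of 416 CPM did not differ from the granule-like level beyond counting error. Epha3 was highest in Cajal-Retzius-like nuclei at 418 CPM and 626 CPM.

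The B-class receptors divided differently. Ephb1 was highest in striatal medium spiny-like nuclei at 259 CPM and 385 CPM, with oligodendrocyte-like nuclei at 227 CPM and 316 CPM. Ephb6, a receptor without kinase activity, was highest in Cajal-Retzius-like nuclei at 56.5 CPM and 46.3 CPM. Ephb4, known from vessels, stood at 48.9 CPM in endothelial-like nuclei of the control and at 18.8 CPM in fibroblast-like nuclei of the knockdown-labelled library. Epha1 was highest in oligodendrocyte-like nuclei at 6.58 CPM and 6.62 CPM. Epha8, at 13.7 CPM and 10.7 CPM, was highest in spiny-like nuclei.

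Of the ephrins, Efna5, a membrane-anchored ligand of A-class receptors, was highest in GABAergic-like nuclei at 268 CPM and 380 CPM. Its receptors Epha5 and Epha7 stood there at 1170 CPM and 168 CPM in the knockdown-labelled library and at 784 CPM and 170 CPM in the control. Efnb3, a transmembrane ligand, was highest in oligodendrocyte-like nuclei at 161 CPM (150 to 174) and 158 CPM (152 to 164), values whose intervals overlap. Efnb2 was highest in fibroblast-like nuclei of the first library (43.8 CPM) and stood at 40.6 CPM in those of the control. Efna1 was highest in oligodendrocyte-like nuclei at 19.1 CPM and 15.6 CPM. Efna2, Efna3 and Efnb1 stayed at or below 16.9 CPM in every class.

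Among the netrin genes, Ntn1, the classical secreted netrin, was highest in oligodendrocyte precursor-like (OPC-like) nuclei at 142 CPM (120 to 167) and 170 CPM (155 to 186). In the control that was 2.85 times the next class. In mature oligodendrocyte-like nuclei it was at 0.227 CPM and 1.8 CPM. Dcc, the attractive netrin receptor, stood in the same OPC-like nuclei at 1127 CPM and 1295 CPM, close to its highest levels of 1209 CPM in CA3 pyramidal-like nuclei of the first library and 1398 CPM in Cajal-Retzius-like nuclei of the control. Unc5c, a repulsive netrin receptor, was at 888 CPM and 1140 CPM in OPC-like nuclei, at 790 CPM and 1134 CPM in oligodendrocyte-like nuclei and at 1547 CPM in newly formed oligodendrocyte-like nuclei of the control. CA3 pyramidal-like nuclei of the knockdown-labelled library, at 903 CPM (879 to 927), did not differ from its OPC-like nuclei beyond counting error. Unc5b was highest in Cajal-Retzius-like nuclei at 79 CPM and 163 CPM, and Unc5a in granule-like nuclei at 80 CPM and 80.7 CPM. The 79 CPM of Unc5b rests on 14 UMIs and did not differ beyond counting error from the 63.5 CPM in oligodendrocyte-like nuclei. Unc5d was highest in GABAergic-like nuclei at 862 CPM and 883 CPM. The 4 Unc5 receptors thus peaked in different classes.

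Ntng1, a netrin-G, was highest in granule-like nuclei at 785 CPM and 945 CPM, and Ntng2 in Cajal-Retzius-like nuclei at 130 CPM and 183 CPM. Lrrc4c, the partner of Ntng1, was highest in OPC-like nuclei at 4667 CPM and 5752 CPM and stood at 623 CPM and 785 CPM in granule-like nuclei. Ntn4 was highest in fibroblast-like nuclei of the first library (75 CPM) and in OPC-like nuclei of the control (56.4 CPM). Ntn3 and Ntn5 stayed at or below 50.8 CPM in every class. Neo1, which reads both netrins and the repulsive guidance molecule Rgma, was highest in astrocyte-like nuclei of the first library (540 CPM) and in newly formed oligodendrocyte-like nuclei of the control (1091 CPM).

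Several semaphorins were highest in OPC-like nuclei. Sema3d, a secreted class 3 semaphorin, stood there at 365 CPM (329 to 404) and 457 CPM (432 to 483). In mature oligodendrocyte-like nuclei it was at 11.3 CPM and 15.8 CPM, and in newly formed oligodendrocyte-like nuclei of the control at 354 CPM. Sema5b, a transmembrane semaphorin with thrombospondin repeats, was at 226 CPM (197 to 257) and 287 CPM (268 to 308) in OPC-like nuclei and at 3.4 CPM and 3.65 CPM in mature oligodendrocyte-like nuclei. Sema6d was also highest in OPC-like nuclei, at 687 CPM and 968 CPM, but stood at 484 CPM and 669 CPM in granule-like nuclei. Sema3d and Sema5b were the genes at 4 times or more in OPC-like nuclei over every other class measured in the knockdown-labelled library. Newly formed oligodendrocyte-like nuclei (27) were too few to measure there. In the control the OPC-like levels were 1.29 and 2.52 times those of newly formed oligodendrocyte-like nuclei (354 CPM and 114 CPM). The promoter windows of Sema3d and Sema5b are shown for this, and that of Plxnb3 because it peaked in the oligodendrocyte lineage. Each is the 250 bases before the annotated start, from RefSeq on build GRCm38.p6, plus strand, which is not the GRCm39 build of the counts.
Sema3d, chr5:12382916-12383165: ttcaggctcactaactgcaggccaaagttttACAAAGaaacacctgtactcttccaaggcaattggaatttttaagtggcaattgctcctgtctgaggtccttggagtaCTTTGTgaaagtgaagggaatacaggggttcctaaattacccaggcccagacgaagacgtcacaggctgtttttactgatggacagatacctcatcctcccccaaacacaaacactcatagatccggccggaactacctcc
Sema5b, chr16:35541112-35541361: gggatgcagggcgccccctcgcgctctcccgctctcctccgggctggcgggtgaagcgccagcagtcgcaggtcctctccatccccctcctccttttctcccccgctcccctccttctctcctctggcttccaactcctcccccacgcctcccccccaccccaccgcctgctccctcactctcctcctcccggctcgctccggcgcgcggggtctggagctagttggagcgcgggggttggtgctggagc
Plxnb3, chrX:73756853-73757102: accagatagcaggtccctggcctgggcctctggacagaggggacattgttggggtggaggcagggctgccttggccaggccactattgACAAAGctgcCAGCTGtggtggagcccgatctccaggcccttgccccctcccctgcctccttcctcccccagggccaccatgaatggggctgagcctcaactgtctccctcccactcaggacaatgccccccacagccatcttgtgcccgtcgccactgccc
Capitals mark matches, on either strand, to ACAAAG (read CTTTGT on the other strand), the core of a Sox-type motif, and to CAGCTG, an E-box. Sema3d held 2 matches to ACAAAG, Plxnb3 held 1 match to each motif, and Sema5b held neither. Over all 32851 promoter windows of the table, 16.5% held ACAAAG and 13% held CAGCTG, so a match is common and describes only these letters. The table held windows for 59 of the 69 genes.

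Other semaphorins marked other cells. Sema3c was at 787 CPM (670 to 918) in endothelial-like nuclei of the control, 20.7 times its next class. Endothelial-like nuclei were too few to measure in the knockdown-labelled library. Sema3a was highest in fibroblast-like nuclei at 147 CPM and 111 CPM, and stood at 417 CPM in an unnamed cluster of the knockdown-labelled library led by Ebf2 and Ebf3. Sema3e was highest in CA1 pyramidal-like nuclei (262 CPM) in the knockdown-labelled library and in OPC-like nuclei (127 CPM) in the control. Sema4a and Sema4b were highest in astrocyte-like nuclei, the first at 83.4 CPM and 77.2 CPM and the second at 76.3 CPM and 113 CPM. Sema4d, the ligand of Plxnb1, was highest in microglia-like nuclei of the first library (117 CPM) and in newly formed oligodendrocyte-like nuclei of the control (329 CPM), with microglia-like nuclei there at 173 CPM. Sema5a was highest in granule-like nuclei (508 CPM) of the knockdown-labelled library and in newly formed oligodendrocyte-like nuclei (886 CPM) of the control. Sema6a stood at 541.9 CPM in newly formed oligodendrocyte-like and 430 CPM in endothelial-like nuclei of the control. Sema7a, a lipid-anchored semaphorin, was at 391 CPM in endothelial-like nuclei of the control and at most at 26.5 CPM in any class of the knockdown-labelled library. Sema3b, Sema3f, Sema4c, Sema4f, Sema4g, Sema6b and Sema6c stayed at or below 60.5 CPM in every class.

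Among the receptors of semaphorins, Plxna4 was highest in granule-like nuclei at 907 CPM and 949 CPM, with microglia-like nuclei at 317 CPM and 447 CPM. Plxna2 was highest in fibroblast-like nuclei at 384 CPM and 516 CPM. Plxnb1, a receptor of Sema4d, was highest in astrocyte-like nuclei at 83.4 CPM and 101 CPM, and Plxnb2 in microglia-like nuclei at 45.9 CPM and 54.5 CPM. Plxnb3 was highest in the oligodendrocyte lineage: 137 CPM and 295 CPM in oligodendrocyte-like nuclei, and 438 CPM in newly formed oligodendrocyte-like nuclei of the control. Plxnd1, the plexin that reads Sema3e, was highest in Cajal-Retzius-like nuclei at 67.7 CPM and 57.4 CPM. Plxnc1, the receptor of Sema7a, stood at 84.7 CPM and 89 CPM in GABAergic-like nuclei. In fibroblast-like nuclei it stood at 75 CPM and 86.7 CPM, no different beyond counting error. Nrp1 was highest in CA3 pyramidal-like nuclei (496 CPM) of the knockdown-labelled library and in granule-like nuclei (318 CPM) of the control, and Nrp2 in striatal medium spiny-like nuclei at 169 CPM and 489 CPM. For Nrp2 the CA3 pyramidal-like level of 166 CPM in the knockdown-labelled library did not differ from the 169 CPM beyond counting error. Plxna1 and Plxna3 stayed at or below 42.2 CPM.

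Ligand and receptor of a known pair mostly peaked in different classes. Of the 23 pairs looked at, Sema3f with Nrp2 was the exception, and only in the knockdown-labelled library, with Sema3f at 8.42 CPM in striatal medium spiny-like nuclei. That level rests on 16 UMIs and did not differ from the next class beyond counting error. Some genes stand in several pairs, and how often other pairs of genes share a class was not counted. These counts thus describe the listed pairs only. Slit3 was highest in granule-like nuclei, which held Robo2 at 417 CPM and 535 CPM and Robo1 at 153 CPM and 165 CPM. Ephb1, a receptor of Efnb3, stood at 227 CPM and 316 CPM in the oligodendrocyte-like nuclei where Efnb3 peaked.

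Within GABAergic-like nuclei, 3 clusters of the knockdown-labelled library differed in their guidance genes. The cluster led by Adarb2 held Unc5c at 1273 CPM (1236 to 1312), against 321 CPM and 529.7 CPM in the others. Sema3c stood there at 119.6 CPM, against 22.5 CPM and 8.95 CPM. The cluster led by Kcnmb2 and Col19a1 was highest in Unc5d (1201 CPM) and Slit2 (287 CPM), and the cluster led by Ankfn1 was highest in Ephb1 (138 CPM, against 14.3 CPM and 11.9 CPM). These are levels in 1 library, and in the control only the Ankfn1 cluster held at least 50 nuclei.

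The libraries were compared in the 7 classes with at least 100 nuclei in each. A gene was counted when it had at least 100 UMIs over both libraries in the class and differed by at least 1.5-fold. The comparison asks how guidance genes stood in neurons, which the synapsin promoter targets, and in the cells around them. Of the 61 guidance genes that could be counted in at least 1 class, 44 passed the fold in 1 or more, against 48.3% of all 14371 genes so counted. Of the 58 that could be counted in at least 2 classes, 6 passed upwards in 1 class and downwards in another, against 2.34% of all 12049 such genes, and Efna3 alone passed upwards in each of its classes, against 1.68%. The other 8 never reached 100 UMIs in a compared class: Efnb1, Epha8, Ephb3, Ephb4, Plxnd1, Robo4, Sema3b and Sema3f.

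In dentate granule-like nuclei (2031 and 543 nuclei) most guidance genes stood at similar levels in the libraries. Of 51 genes measured, 3 were at least 1.5-fold higher in the knockdown-labelled library and 4 lower, against 7.15% and 3.72% of all 11494 genes measured (10.9% in either direction). The median log2 ratio was -0.055 (-0.12 to 0.16), against 0.047 for all genes. With an estimated share of free RNA subtracted, 23 of 50 genes passed the fold, against 26.0% of all genes. Slit3 (0.11), Epha6 (-0.06), Epha5 (-0.06), Plxna4 (-0.06), Epha7 (-0.13), Epha4 (-0.14) and Sema5a (-0.15) all lay within 0.2 of 0. Epha10, a kinase-dead Eph receptor, was higher in the knockdown-labelled library, at 112 CPM (106 to 118) and 44.9 CPM (38.7 to 51.8), a log2 ratio of 1.31 (1.10 to 1.54). Its ratio stayed above 1.5-fold in all 16 alternatives tried. Sema3c was at 8.5 CPM and 2.64 CPM, on 114 and 11 UMIs, a log2 ratio of 1.63 (0.79 to 2.73). Efna3 was at 14.2 CPM and 8.17 CPM (0.78). The intervals of the 2 libraries did not overlap for any of these 3 genes.

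Lower in the knockdown-labelled granule-like nuclei were Plxnb3, Sema6a, Robo3 and Neo1. Robo3 stood at 45.4 CPM (41.9 to 49.2) and 70.6 CPM (62.8 to 79.2), a log2 ratio of -0.64 (-0.84 to -0.43). Sema6a stood at 11.3 CPM and 21.4 CPM, a ratio of -0.93. Smaller differences with intervals beyond 0 were those of Sema6d (484 CPM and 669 CPM, -0.47), Unc5d (239 CPM and 319 CPM, -0.42), Robo2 (417 CPM and 535 CPM, -0.36) and Dcc (613 CPM and 775 CPM, -0.34). Markers of oligodendrocytes moved with this comparison: their 14 genes summed to 602.5 CPM in the knockdown-labelled and 2137 CPM in the control granule-like nuclei, with 13 at least 1.5-fold lower and none at 0 in either. Plxnb3 and Sema6a are themselves high in the oligodendrocyte lineage, and the part of these markers in their ratios was not tested. Of 34 markers of CA pyramidal and cortical excitatory neurons, 21 were at least 1.5-fold higher in the knockdown-labelled granule-like nuclei and none lower, with sums of 2980 CPM and 2674 CPM and with 0 and 1 of them at 0. Epha10 (121 CPM) and Efna3 (16.5 CPM) were highest in CA1 pyramidal-like nuclei of that library, and the part of these markers was not tested. Of 14 microglia markers, 11 were at least 1.5-fold lower, with sums of 194 CPM and 297 CPM and none at 0. Among nuclei scored male the ratio of Robo3 was -0.27.

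**Figure D3:**
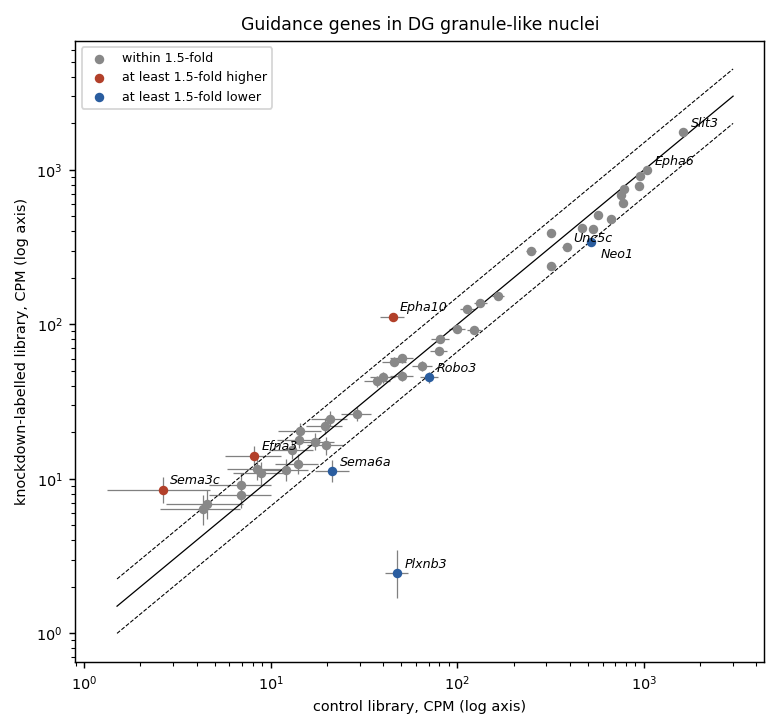
Levels of the 51 measured guidance genes in dentate granule-like nuclei, control library on the horizontal and knockdown-labelled library on the vertical axis (CPM, log axes), with exact 95% Poisson intervals; the solid line is equality and the dashed lines 1.5-fold. Most genes lie between the dashed lines, Epha10 lies above at 112 against 44.9 CPM, and Plxnb3 lies far below at 2.46 against 47.6 CPM.

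GABAergic-like nuclei differed more, and mostly downwards. Of 55 genes measured, the knockdown-labelled library was higher in 4 and lower in 14, against 11.9% higher and 8.75% lower of all 12154 genes (20.6% in either direction). The comparison rests on 1961 and 103 nuclei, and with free RNA subtracted 34 of 53 genes passed the fold, against 48.2% of all genes. Robo2 stood at 276 CPM (268 to 284) and 567 CPM (523 to 614), a log2 ratio of -1.04. Ephb1 stood at 83 CPM (78.8 to 87.4) and 229 CPM (201 to 259), a ratio of -1.47. Dcc stood at 628 CPM and 1081 CPM (-0.78), Sema6a at 90.7 CPM and 201 CPM (-1.15) and Sema3e at 30.7 CPM and 74.2 CPM (-1.28). Ephb2, Efnb3, Ntn1, Neo1, Plxnb1, Plxnb2, Plxnb3, Robo3 and Sema5b were the others, with ratios between -0.66 and -3.96, and for Plxnb2 the interval reached 0.09. Robo3 turned to 0.61 when nuclei were thinned to 1000 UMIs. Mixing of subtypes differs between the libraries, so the Ankfn1 cluster was read by itself (1110 and 67 nuclei), a reading chosen after the values were seen: Robo2 stood there at 176 CPM and 566 CPM, Ephb1 at 138 CPM and 318 CPM, Dcc at 766 CPM and 1271 CPM, and Sema6a at 73.3 CPM and 205 CPM. Ntn1 did not keep its direction there (16.4 CPM and 12.1 CPM, with overlapping intervals). The Ankfn1 cluster is itself mixed. At the higher clustering resolution, nuclei of this kind fell in a cluster of 600 and 20 nuclei and an unnamed cluster of 511 and 47. Reading the Ankfn1 cluster by itself thus does not remove the mixing of subtypes. The genes counted as higher were Plxna2 (122 CPM and 73.2 CPM, 0.73), Ntn3, Efna3 and Sema4f, and only for Plxna2 did the interval lie beyond 0. None of the 4 passed the fold with free RNA subtracted at either share, 2 turned at the median share, and Plxna2 was then at 0.057. Oligodendrocyte markers summed to 329.5 CPM and 2309 CPM in these nuclei, with all 14 at least 1.5-fold lower, and their part was not tested.

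**Figure D4:**
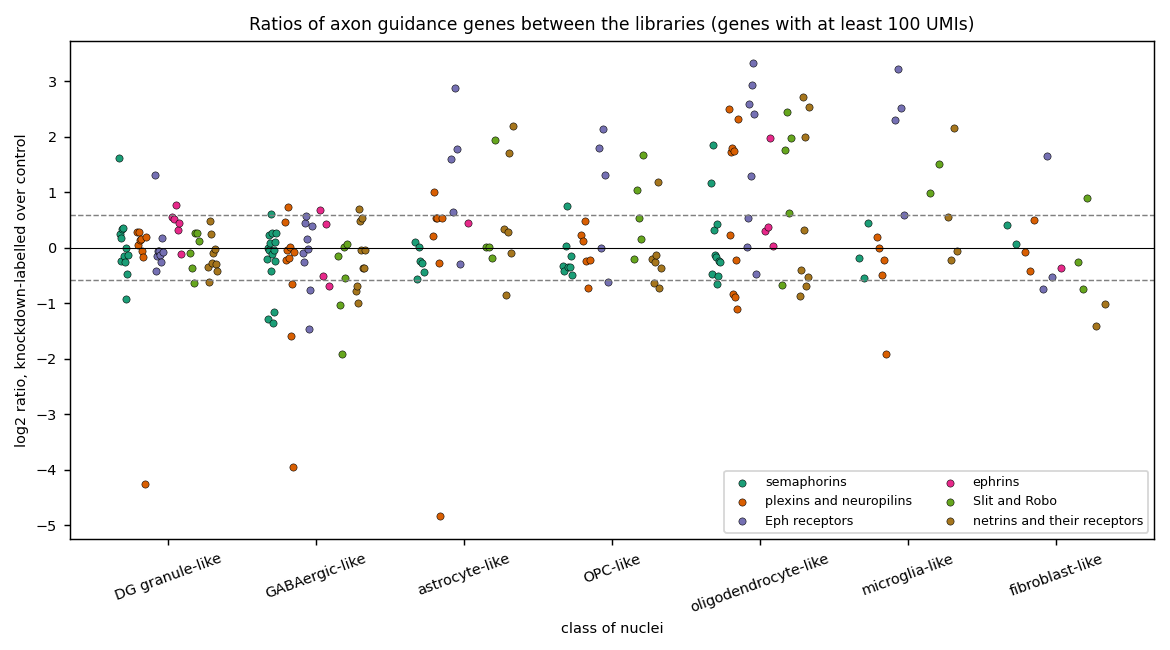
Log2 ratio of the knockdown-labelled over the control level of each guidance gene with at least 100 UMIs (points, coloured by family) in each compared class; dashed lines mark 1.5-fold. Granule-like nuclei cluster around 0, GABAergic-like nuclei reach lower, and Eph receptors lie highest in oligodendrocyte-, microglia- and astrocyte-like nuclei.

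In glial and fibroblast-like nuclei the genes higher in the knockdown-labelled library were nearly all genes that peak in neurons. Oligodendrocyte-like nuclei had 20 higher and 7 lower of 46 measured, against 22.1% and 6.05% of all genes. Astrocyte-like nuclei had 8 higher and 2 lower of 29 (10.3% and 4.93% of all genes). Microglia-like nuclei had 7 higher and 1 lower of 18 (10.8% and 10.6%), OPC-like nuclei 7 and 4 of 31 (8.11% and 5.15%) and fibroblast-like nuclei 2 and 4 of 14 (8.25% and 15.1%). In either direction the shares of all genes were 28.1% in oligodendrocyte-, 15.3% in astrocyte-, 21.4% in microglia-, 13.3% in OPC- and 23.4% in fibroblast-like nuclei. All 8 of the higher genes in astrocyte-like nuclei, all 7 in microglia-like, all 7 in OPC-like, both in fibroblast-like and 19 of 20 in oligodendrocyte-like nuclei had their highest level of the knockdown-labelled library in a neuronal class. By the highest class of the control library these were 8 of 8, 7 of 7, 7 of 7, 2 of 2 and 16 of 20. By the knockdown-labelled library, 44 of all 69 guidance genes peaked in a neuronal class. So did 4 of 7 lower genes in oligodendrocyte-like, 3 of 4 in fibroblast-like and 2 of 4 in OPC-like nuclei. Of the lower genes in astrocyte-like (2) and microglia-like nuclei (1), 0 did. The share of all genes that peak in a neuronal class was not counted. Epha6 stood at 149 CPM (138 to 161) and 14.9 CPM (13.1 to 16.8) in oligodendrocyte-like nuclei, a log2 ratio of 3.32, and its ratios were 2.89 in astrocyte-like, 2.51 in microglia-like and 2.14 in OPC-like nuclei. Epha5 stood at 204 CPM and 21.8 CPM in microglia-like nuclei (3.22) and at 208 CPM and 27.3 CPM in oligodendrocyte-like nuclei (2.93). The ratios of Ntng1 were 2.72 (oligodendrocyte-like), 2.16 (microglia-like) and 1.71 (astrocyte-like), and Slit3 had ratios from 0.89 in fibroblast-like to 1.98 in oligodendrocyte-like nuclei. Epha4 was higher in all 5 classes, by 1.59 in astrocyte-like, 1.65 in fibroblast-like, 2.30 in microglia-like, 1.30 in oligodendrocyte-like and 1.79 in OPC-like nuclei. Weighting the oligodendrocyte-like clusters equally turned Slit3 (-0.13), Plxna2 (-0.37) and Sema3c (-0.89) there and left Nrp1 at 0.13 and took Plxna4 from 1.75 to 0.18. In microglia-like nuclei such weighting took Robo1 from 0.98 to 0.38.

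Neuronal markers moved in the same nuclei. Of 79 such markers, 59 were at least 1.5-fold higher in the knockdown-labelled oligodendrocyte-like nuclei, 56 in microglia-like, 55 in astrocyte-like, 48 in fibroblast-like and 42 in OPC-like nuclei. In the same order 3, 3, 1, 10 and 7 were as much lower. Their summed levels were 6407 CPM and 6591 CPM in oligodendrocyte-like, 4694 CPM and 3793 CPM in microglia-like and 5069 CPM and 4625 CPM in astrocyte-like nuclei. They were 4285 CPM and 3403 CPM in fibroblast-like and 9899 CPM and 9920 CPM in OPC-like nuclei. Counts of markers took no minimum of UMIs, unlike those of guidance genes, and no share of all genes was counted in that way. Markers at 0 numbered 0 and 0 in oligodendrocyte-like nuclei of the knockdown-labelled and control library, 2 and 12 in astrocyte-like, 4 and 6 in microglia-like, 6 and 6 in OPC-like and 10 and 16 in fibroblast-like nuclei. Syt1, which encodes a calcium sensor of synaptic vesicles, was at 593 CPM and 55.2 CPM in oligodendrocyte-like nuclei. With an estimated share of free RNA subtracted, of the 20 higher genes in oligodendrocyte-like nuclei 1 still passed the fold, 14 had no level above 3 UMIs left in either library and 3 turned to lower. Of the 8 in astrocyte-like nuclei none passed, 5 had no value and 3 turned. Of the 7 in OPC-like nuclei none passed and 6 had no value, and of the 7 in microglia-like nuclei 1 passed and 5 had no value. Both in fibroblast-like nuclei turned. With the lower estimate of the share, 9 of 20 still passed in oligodendrocyte-like, 1 of 8 in astrocyte-like, 3 of 7 in microglia-like, 2 of 7 in OPC-like and 1 of 2 in fibroblast-like nuclei.

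Other genes were lower in glial or fibroblast-like nuclei, and 4 of them were higher in a different, glial class (Robo1 and Ephb1 in microglia-like, Epha3 and Slit2 in oligodendrocyte-like nuclei). In oligodendrocyte-like nuclei Plxnb3 stood at 137 CPM (126 to 148) and 295 CPM (287 to 303), a log2 ratio of -1.11. Dcc stood there at 145 CPM and 266 CPM (-0.87), Plxnb1 at 21.1 CPM and 39.3 CPM (-0.89), Robo1 at 245 CPM and 391 CPM (-0.68) and Unc5b at 63.5 CPM and 102 CPM (-0.68). Plxna3 (-0.84) and Sema5a (-0.66) were the others. All 7 stayed lower with free RNA subtracted. The share subtracted was 47.0% in the knockdown-labelled and 21.3% in the control library, which lowers ratios in general, so this is no check on them. Among nuclei scored male Dcc was at -0.28, Robo1 at -0.53 and Sema5a at -0.09, and with the clusters weighted equally Robo1 was at -0.46 and Unc5b at -0.38, all short of 1.5-fold. Oligodendrocyte-like nuclei fell in 4 clusters whose sizes differed between the libraries: 1785 and 78 nuclei in the first, and 143 and 1617, 75 and 2405, and 86 and 2939 in the others. In these 4 clusters, in the same order, Plxnb3 was at 132 CPM and 173 CPM, at 115 CPM and 222 CPM, at 175 CPM and 317 CPM, and at 229 CPM and 318 CPM. It was thus lower in the knockdown-labelled library in each, with intervals that overlap in the first and the last. Robo1 in these clusters was at 238 CPM and 486 CPM, 185 CPM and 260 CPM, 529 CPM and 581 CPM, and 205 CPM and 271 CPM. In fibroblast-like nuclei Neo1, Unc5c (291 CPM and 586 CPM, -1.01), Slit2 (278 CPM and 466 CPM, -0.74) and Epha3 (65.6 CPM and 112 CPM, -0.75) were lower. The Slit2-rich cluster held 23 of 104 and 54 of 209 fibroblast-like nuclei, and with the 2 clusters weighted equally the ratio of Slit2 was -0.64 and that of Epha3 -0.39. In OPC-like nuclei Ntng2 (20.6 CPM and 34.8 CPM, -0.73), Plxnb3, Neo1 and Ephb1 were lower, and the interval of Ephb1 reached 0.02. Epha3 in fibroblast-like and Ntng2 in OPC-like nuclei turned to 0.29 and 0.018 with doublets kept.

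Neo1 was lower in the knockdown-labelled library in all 7 classes. It stood at 341 CPM (331 to 351) and 521 CPM (499 to 543) in granule-like nuclei, a log2 ratio of -0.61, and at 190 CPM and 305 CPM in GABAergic-like nuclei (-0.68). In astrocyte-like nuclei it stood at 540 CPM (504 to 578) and 970 CPM (931 to 1011), a ratio of -0.84, and in fibroblast-like nuclei at 263 CPM and 699 CPM (-1.41). It stood at 417 CPM and 649 CPM in OPC-like nuclei (-0.64), at 410 CPM and 544 CPM in oligodendrocyte-like nuclei (-0.41) and at 89.9 CPM and 105 CPM in microglia-like nuclei (-0.22), where the intervals overlap. The ratio passed 1.5-fold in 5 of the 7 classes, as it did for 1.55% of the 1807 genes with at least 100 UMIs in all of them. A negative ratio in all 7 classes was found for 16.4% of those genes, and among the 6 guidance genes that could be counted in all 7 for Neo1 and Unc5c, the latter at ratios from -0.05 to -1.01. With free RNA subtracted Neo1 had ratios of -0.87 in granule-like, -1.05 in astrocyte-like, -0.65 in oligodendrocyte-like and -0.86 in OPC-like nuclei. The share subtracted was larger in the knockdown-labelled library in each of these classes, which lowers ratios in general. The ratio was nearer 0 among nuclei scored male than among those scored female: -0.19 and -1.71 in granule-like, -0.58 and -1.48 in astrocyte-like and -0.39 and -1.08 in OPC-like nuclei, so that it fell short of 1.5-fold among male nuclei in each. With the looser filter the ratio in microglia-like nuclei was 0.11. Nuclei cannot be assigned to mice, so sex and animal cannot be told apart. A part of the fibroblast ratio lies in 1 cluster: Neo1 was at 1537 CPM in the Slit2-rich cluster of the control, and in the other fibroblast-like cluster it stood at 205 CPM and 319 CPM.

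Plxnb3 had the largest ratios between the libraries among guidance genes in granule-, GABAergic- and astrocyte-like nuclei. It stood at 2.46 CPM (1.69 to 3.45) and 47.6 CPM (41.2 to 54.7) in granule-like nuclei (-4.25), at 3.16 CPM and 49.1 CPM in GABAergic-like nuclei (-3.96) and at 1.29 CPM and 46.1 CPM in astrocyte-like nuclei (-4.84), where the knockdown-labelled value rests on 2 UMIs. In the control it was between 46 CPM and 66.7 CPM in every class outside the oligodendrocyte lineage. Its level there moves with that of the oligodendrocyte markers, which summed to 617.9 CPM and 2663 CPM in astrocyte-like nuclei with all 14 at least 1.5-fold lower. Their part in the result was not tested.

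**Figure D5:**
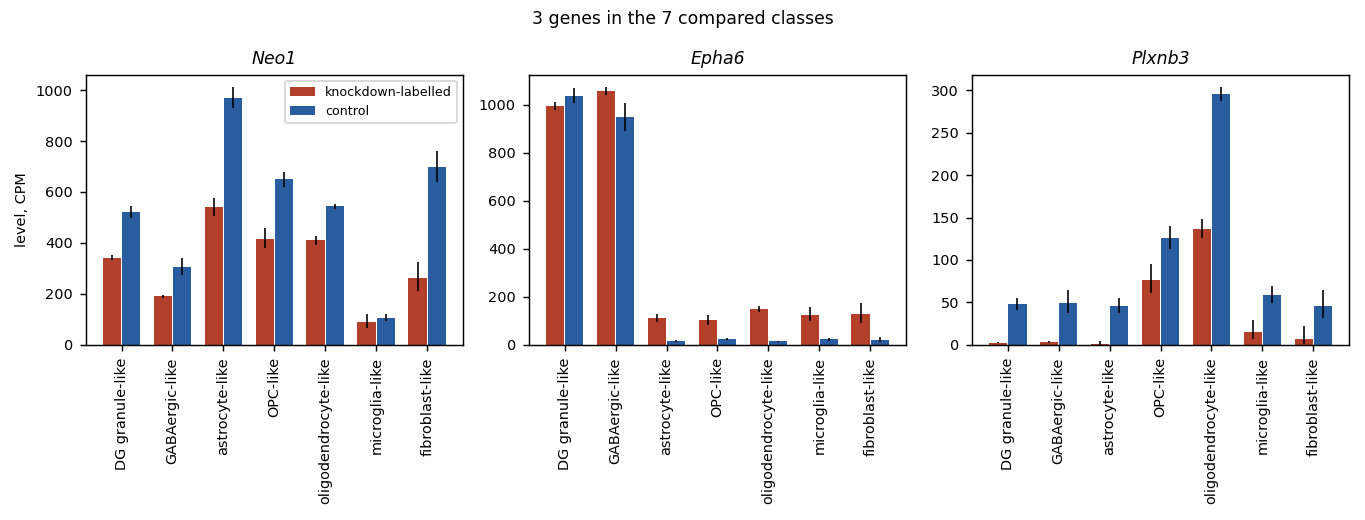
Levels of Neo1, Epha6 and Plxnb3 in CPM (bars, with exact 95% Poisson intervals) in the 7 compared classes of both libraries. Neo1 is lower in the knockdown-labelled library in every class, Epha6 is near equal in granule-like nuclei and higher in glia, and Plxnb3 is near 0 in knockdown-labelled neurons and astrocyte-like nuclei but between 46 and 58.8 CPM in the control classes outside the oligodendrocyte lineage.

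The 59 further genes of these pathways were adhesion partners, further ligands and intracellular effectors of the receptors. In granule-like nuclei 1 of 51 measured was higher and 4 lower, against 7.15% and 3.72% of all genes. Cntn2, an adhesion molecule also made by oligodendrocytes, stood at 9.62 CPM and 51.9 CPM (-2.43), Dock1, an activator of Rac downstream of Dcc, at 4.99 CPM and 27.1 CPM (-2.44), and Chn2, a chimaerin, at 15.4 CPM and 29.3 CPM (-0.93). Flrt1, a ligand of Unc5 receptors, was higher at 10.8 CPM and 6 CPM (0.82). In GABAergic-like nuclei 3 of 55 were higher and 7 lower, against 11.9% and 8.75% of all genes. Among them were Met (15.8 CPM and 4.63 CPM, 1.63), Dock1 (-1.58), Cntn2 (-1.58) and Rgma (8.48 CPM and 19.5 CPM, -1.23). Oligodendrocyte-like nuclei had 16 higher and 4 lower of 54, against 22.1% and 6.05% of all genes. Flrt2 (25 CPM and 3.76 CPM, 2.73), Ngef (19.1 CPM and 3.37 CPM) and Nrcam (108 CPM and 21.5 CPM, 2.33) had the highest ratios there, and Chn2 (118 CPM and 225 CPM, -0.92) and Ptprd (2873 CPM and 4501 CPM, -0.65) were lower. With the 4 oligodendrocyte-like clusters weighted equally Chn2 was at -0.41 and Ptprd at -0.25, both short of 1.5-fold. Astrocyte-like nuclei had 3 and 3 of 42 (10.3% and 4.93% of all genes) and microglia-like 9 and 4 of 35 (10.8% and 10.6%). OPC-like nuclei had 3 and 3 of 46 (8.11% and 5.15%) and fibroblast-like 4 and 2 of 25 (8.25% and 15.1%). In microglia-like nuclei Srgap2, a Slit-Robo GTPase-activating protein, stood at 1818 CPM and 2977 CPM (-0.71), and Adam10, a protease that sheds ephrins, at 240 CPM and 388 CPM (-0.69). Microglia-like nuclei fell in 2 clusters, with 239 and 354 nuclei in one and 40 and 746 in the other, and with these weighted equally Srgap2 was at -0.03 and Adam10 at -0.44, both short of 1.5-fold. In fibroblast-like nuclei Rgma, the ligand of Neo1, stood at 37.5 CPM and 127 CPM (-1.71).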

How the data were processed

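The authors deposited raw UMI counts per gene and barcode, 1 matrix per library, not normalized, written, per the file headers, by Cell Ranger 9.0.1. The genome build was GRCm39, and Seurat 4.1.0 was used, per the submitters' processing notes. Counting of intronic reads: not given in the sources used here. Per the labels' protocols, nuclei were dounced, stained with propidium iodide and sorted to remove debris.

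Barcodes needed 500 genes, 800 UMIs and no more than 5% mitochondrial UMIs. Scrublet marked 1090 doublets in the knockdown-labelled library (8.12%). Its automatic threshold marked 2 in the control library, so there the highest scores at the rate expected from the number of nuclei were removed (1366, 10.9%). Nuclei were clustered with scanpy 1.11.5 (2000 variable genes, 30 components, 15 neighbours, Leiden resolution 1), leaving out the guidance genes, Bcas2, mitochondrial and sex-linked genes. Clusters were called X-like from fixed markers; a class here may differ from the study's own.

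UMIs were summed per class and library. Intervals are exact Poisson (levels) and exact conditional binomial (ratios, 0.5 UMI added), at 95%, and cover counting error only; UMIs of 1 library are not replicates. A ratio was called at 1.5-fold with at least 100 UMIs over both libraries. Nuclei with Y-linked UMIs and no Xist were scored male, those with Xist and no Y-linked UMIs female. Free RNA was estimated per class from markers of other classes, and a level under 3 UMIs after subtraction was set to 3 UMIs. The median share, taken of a gene's level over the whole library, differed by library. It ran from 36.0% to 67.6% in the knockdown-labelled and from 16.3% to 36.6% in the control library. TMM factors came from edgeR 4.0.16; TMM scaling shifted all ratios by -0.25 in oligodendrocyte-, -0.17 in microglia- and -0.11 in astrocyte-like nuclei. The ratio script was tested on simulated counts.

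The 16 alternatives were gene minimums of 50, 200 and no UMIs, a looser and a stricter filter, doublets kept, resolutions of 0.5 and 2, mean CPM over nuclei, nuclei thinned to 1000 UMIs, clusters weighted equally, free RNA subtracted at a median and a lower-quartile share, male and female nuclei, and TMM. Genes named with values were, in each family, the 3 with the highest level, those at 4 times every other class, the 3 highest and lowest ratios past 1.5-fold in each class, and 23 known ligand and receptor pairs; others were named after their values were seen. The genes, marker lists and 59 pathway genes were chosen with earlier results of these data known.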

Additional observations from a re-analysis of the deposited data

Results flagged for a closer look

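For 6 guidance genes the ratio of the knockdown-labelled over the control library passed 1.5-fold upwards in 1 class and downwards in another, of 58 measured in at least 2 classes; among all such genes the share was 2.34%. With 1 library per group the difference between the classes was not tested. Epha3 had a log2 ratio of 2.59 in oligodendrocyte-like and -0.75 in fibroblast-like nuclei, and the second turned to 0.29 with doublets kept. Ephb1 had 0.59 in microglia-like and -1.47 in GABAergic-like nuclei; the first rests on 29 and 82 UMIs, its interval reaches below 0, and it turned to -0.76 with doublets kept. Robo1 had 0.98 in microglia-like and -0.68 in oligodendrocyte-like nuclei, and the first turned to -0.076 with doublets kept. Robo2 had 1.76 in oligodendrocyte-like nuclei, at 50.8 CPM and 15 CPM, and -1.04 in GABAergic-like nuclei, at 276 CPM and 567 CPM. Sema3e had 1.85 in oligodendrocyte-like and -1.28 in GABAergic-like nuclei. Slit2 had 0.64 in oligodendrocyte-like and -0.74 in fibroblast-like nuclei, and the first turned to -3.47 with free RNA subtracted.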

How the results depend on the processing

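No paired analysis was possible because each group is 1 library. Over 16 alternatives, 250 of 325 values of the counts and medians stayed within 1.5 times or within their interval and 75 moved. No median whose interval lay apart from 0 changed sign, but of 103 values of the medians 18 had the other sign than the reported median: 5 in astrocyte-, 5 in microglia-, 3 in fibroblast-, 3 in oligodendrocyte-, 1 in granule- and 1 in OPC-like nuclei. Of 4980 values of single ratios, 4060 stayed, 870 moved and 50 turned; unless a value below shows it, the cause was not tested. Classes under 100 nuclei in a library gave no value: GABAergic-, fibroblast- and microglia-like among male nuclei, GABAergic- and fibroblast-like among female nuclei, GABAergic-like at the higher clustering resolution, and fibroblast-like with the looser filter, the stricter filter and the lower resolution. Depth limits the 8 genes never measured and most values in microglia- and fibroblast-like nuclei.

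Counts of guidance genes passing 1.5-fold in either direction, which were 7 in granule-, 18 in GABAergic-, 10 in astrocyte-, 6 in fibroblast-, 8 in microglia-, 27 in oligodendrocyte- and 11 in OPC-like nuclei, moved by over 1.5 times as follows. A minimum of 50 UMIs gave 12 in granule-, 13 in fibroblast- and 17 in microglia-like nuclei. No minimum, where fewer UMIs stand behind a ratio, gave 19 in granule-, 42 in astrocyte-, 42 in fibroblast-, 44 in microglia-, 44 in oligodendrocyte- and 30 in OPC-like nuclei. A minimum of 200 UMIs gave 5 in astrocyte-, 0 in microglia- (of 8 measured) and 3 in OPC-like nuclei. Doublets kept gave 23 in astrocyte-, 14 in fibroblast- and 13 in microglia-like nuclei. Nuclei thinned to 1000 UMIs gave 13 in granule-like nuclei, where 25.2% of all genes passed. Free RNA subtracted gave 23 in granule-, 34 in GABAergic- and 13 in fibroblast-like nuclei, and the lower estimate of its share 12 in granule- and 10 in fibroblast-like nuclei. Male nuclei alone, with fewer genes measured, gave 4 in granule-, 2 in astrocyte-, 14 in oligodendrocyte- and 2 in OPC-like nuclei, and female nuclei 4 in astrocyte-, 3 in microglia- and 4 in OPC-like nuclei. Beside most of these counts no share of all genes is given, so they show only how the counts depend on the setting.

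Counts of the further pathway genes, which were 5 in granule-, 10 in GABAergic-, 6 in astrocyte-, 6 in fibroblast-, 13 in microglia-, 20 in oligodendrocyte- and 6 in OPC-like nuclei, moved to 11 in fibroblast-like nuclei at 50 UMIs. With no minimum they were 13 in granule-, 16 in astrocyte-, 26 in fibroblast-, 33 in microglia- and 14 in OPC-like nuclei. At 200 UMIs they were 2 in granule-, 3 in astrocyte-, 0 in fibroblast- and 6 in microglia-like nuclei. Doublets kept gave 17 in astrocyte-, 14 in fibroblast- and 12 in OPC-like nuclei. Thinned nuclei gave 8 in granule-, 17 in GABAergic- and 10 in fibroblast-like nuclei, and the higher resolution 12 in oligodendrocyte-like nuclei. Free RNA subtracted gave 14 in granule-, 25 in GABAergic-, 20 in astrocyte-, 13 in fibroblast- and 21 in OPC-like nuclei, and its lower share 12 in astrocyte- and 10 in fibroblast-like nuclei. Male nuclei gave 2 in OPC-like, and female nuclei 3 in granule-, 7 in microglia- and 2 in OPC-like nuclei. These counts too stand without the shares of all genes and show only their dependence on the setting.

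Medians of the guidance genes moved most with free RNA subtracted: to -0.44 in granule-, -0.88 in GABAergic-, -1.15 in astrocyte-, -1.39 in fibroblast-, -0.83 in microglia-, -0.91 in oligodendrocyte- and -0.63 in OPC-like nuclei. The medians of all genes were then -0.32, -0.44, -0.40, -0.74, -0.48, -0.37 and -0.46. With the lower share they were -0.16, -0.47, -0.63, -0.77, -0.39, -0.25 and -0.43 in the same order. Other medians that moved were 0.49 in fibroblast-like nuclei with no minimum, -0.21 in microglia-like nuclei with doublets kept, -0.23 in male astrocyte-, -0.59 in female microglia- and -0.31 in female OPC-like nuclei.

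Single ratios that turned with free RNA subtracted were, in GABAergic-like nuclei, Efna3 (-0.86), Efnb3 (0.0012) and Cntn2 (1.00). In astrocyte-like nuclei they were Epha4 (-1.52), Epha5 (-6.30), Nrp2 (-1.25), Chl1 (-1.01), Cntn2 (0.44) and Sipa1l1 (-3.01), and in fibroblast-like nuclei Epha4 (-0.96), Slit3 (-3.80), Chn1 (-1.28) and Sipa1l1 (-2.60). In oligodendrocyte-like nuclei they were Epha4 (-1.57), Slit2 (-3.47), Unc5a (-1.37), Chn1 (-0.92) and Sipa1l1 (-3.52), and in OPC-like nuclei Plxnb3 (0.19) and Chn1 (-4.94). With the lower share, Epha5 (-1.37), Ntng1 (-2.13), Pak3 (-1.73) and Sipa1l1 (-2.23) turned in astrocyte-like, Slit3 (-0.44), Chn1 (-0.77) and Sipa1l1 (-0.096) in fibroblast-like, Slit1 (-0.45), Slit2 (-1.30) and Mical2 (-1.04) in oligodendrocyte-like, and Ntng1 (-2.86), Robo2 (-0.64) and Chn1 (-0.20) in OPC-like nuclei. Thinning turned Efna3 (-0.28), Robo3 (0.61), Met (-0.16) and Rgs3 (-0.34) in GABAergic-like, Flrt1 (0.23) in fibroblast-like and Ephb1 (0.055) in OPC-like nuclei. Doublets kept turned Epha3 (0.29) in fibroblast-like, Ephb1 (-0.76), Robo1 (-0.076), Lrrc4c (-0.17) and Ptprd (-0.63) in microglia-like and Ntng2 (0.018) in OPC-like nuclei. Weighting clusters equally turned Ephb1 (-0.015) in microglia-like and Plxna2 (-0.37), Sema3c (-0.89) and Slit3 (-0.13) in oligodendrocyte-like nuclei, and the looser filter turned Ephb1 (0.23) in OPC-like nuclei.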

Other observations

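Guidance genes were among the 10 leading genes by fold of 3 clusters that no marker list named, but led none of them. A cluster of 185 and 4 nuclei held Epha6 at 2254 CPM and Ntng1 at 1607 CPM in the knockdown-labelled library, with Ndst4 and Fn1 among its leading genes. A cluster of 111 and 23 nuclei led by Ebf2 and Ebf3 held Sema3a at 417 CPM. A shallow cluster of 860 and 106 nuclei, with a median of 1056 UMIs and with Igfbpl1, Top2a and Egfr among its leading genes, held Epha6 at 1164 CPM in the knockdown-labelled and 765 CPM in the control library. At the higher clustering resolution, an unnamed cluster of 857 and 22 nuclei was led by Epha6. Another, of 5 and 84 nuclei, had Igfbpl1, Top2a and Egfr among its leading genes. The 1164 CPM and 765 CPM may thus come from unlike nuclei. The guidance genes took no part in the clustering.

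Efna3, a membrane-anchored ephrin of low level, was the only guidance gene measured in at least 2 classes whose ratio passed 1.5-fold upwards in each of them, which were granule-like (0.78) and GABAergic-like nuclei (0.68, on 164 and 6 UMIs). The second turned to -0.28 with nuclei thinned to 1000 UMIs and to -0.86 with free RNA subtracted. Of the 12049 genes measured in at least 2 classes, 1.68% passed upwards in each.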
